A study of Mus musculus with 9 samples.

Results

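The gonads compared here were Sox9-deleted fetal testes (XY-KO, 3 samples) and control ovaries (XX-WT, 3 samples), 6 of the 9 samples measured by RNA sequencing in mouse embryos at E13.5 (days of development after mating). The members described are the autosomal genes of the table that sets these groups against each other, 14566 of its 15300 genes, because the groups also differ in their sex chromosomes. The question was which features of the testis persisted when Sox9 was deleted, with the ovary as the reference. Some of the testis genes were also expressed in the ovary, so a gene no higher than the ovary was not necessarily absent. Mice were C57BL/6. The ovaries were XX Sox9flox/flox, described as wildtype, and the Sox9-deleted testes were XY AMH-Cre; Sox9flox/flox. Control testes (XY-WT, 3 samples, XY Sox9flox/flox, also described as wildtype) are set beside them. All 3 groups therefore carried floxed Sox9 alleles, and only XY-KO carried the Cre. That Cre is driven by the AMH promoter, which is active in Sertoli cells once these have begun to differentiate, so the deletion follows the first decision to form a testis and is limited to cells that have switched the promoter on. Whether each sample was 1 fetus or a pool, and whether samples came from separate litters, is not in the labels. P-values therefore measure only the spread between these samples, which may be technical.

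The supporting cells of the early gonad become Sertoli cells in the testis and pre-granulosa cells in the ovary. SOX9 is the transcription factor that drives the Sertoli fate, and Sertoli cells in turn signal to the rest of the organ: they instruct interstitial cells to become steroid-making Leydig cells, build cords around the germ cells, and keep those germ cells out of meiosis by destroying retinoic acid. The ovarian path depends on WNT4, RSPO1 and beta-catenin signalling and on FOXL2, and ovarian germ cells enter meiosis in response to retinoic acid and BMP signals.

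Values are the authors' limma results for one group against another, in the authors' deposited table, which holds no values of single samples. Group levels are given in CPM (reads of a gene relative to all counted reads of its library, not corrected for gene length, so levels are compared between groups and not between genes) and were derived from the authors' mean and fold changes. Folds carry the 95% interval implied by the authors' t. No fold is given where a group lies below 0.125 CPM (-3 in log2 CPM), because it then depends on an offset that is not given in the sources used here. A gene is called higher or lower at a limma adjusted p under 0.05. Depth per sample is unknown. In whole gonads, fewer cells of a type and less RNA per cell cannot be told apart. The XX-WT, XY-KO and XY-WT comparisons share samples, so their values are set side by side only.

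The sex chromosome content of the groups matched the labels: the authors' deposited table gave Xist, the RNA of the inactive X, -9.58 in XY-KO minus XX-WT on the log2 scale, and the Y-linked genes Kdm5d, Uty, Eif2s3y and Ddx3y 5.84, 6.13, 9.98 and 10.75. Sox9 (ENSMUSG00000000567, GRCm38 chromosome 11, 112782224 to 112787760) was reduced but present in XY-KO, at 13.2 CPM against 89.4 CPM in XY-WT. It was still 3.28-fold (95% interval 2.32 to 4.63) higher than the 4.02 CPM of the ovary. These levels cover the whole gene, so neither the exons behind the remaining reads nor the share of Sertoli cells with a deletion can be read from them. Among markers of the tissues, the testis genes Cyp17a1 and Cyp26b1 were called higher in XY-KO and the ovary gene Fst was called lower.

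Between Sox9-deleted testis and ovary, 1307 autosomal genes were higher in XY-KO (8.97% of the 14566 tested) and 1282 were lower (8.80%). The difference was at least 2-fold for 752 of the higher and 672 of the lower genes, and at least 8-fold for 140 and 90. For scale, the control ovary against the control testis had 1521 genes higher in XX-WT (10.4%) and 1808 lower (12.4%), and XY-KO against XY-WT had 93 higher (0.638%) and 227 lower (1.56%). By the median over all autosomal genes, XY-KO and XX-WT differed by -0.004 on the log2 scale. The genes of at least median expression with a standard gene name were ranked, leaving out Gm, Rik, clone and ENSMUSG names. The 10 largest higher genes among them were, in order, Cyp11a1, Cyp17a1, Prokr2, Adh1, Cyp26b1, Star, Hsd3b1, Inhba, Hhip and Aard. The 10 largest lower ones were Lgr5, Tnfrsf19, Col12a1, Adamts19, Runx1, Bhlhe41, Nr6a1, Bmp2, Anpep and Lrrn1.

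**Figure D1:**
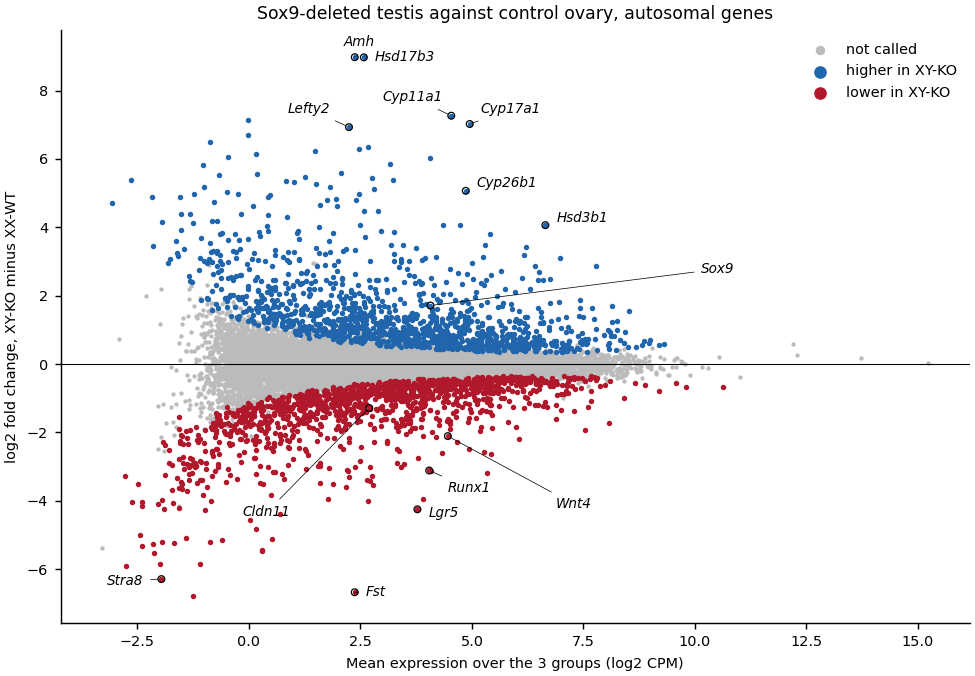
Each point is an autosomal gene, with its mean expression over the 3 groups on the x axis (log2 CPM) and its log2 fold change in XY-KO minus XX-WT on the y axis. Blue points are the 1307 genes called higher in XY-KO, red points the 1282 called lower and grey points the genes not called. Of the labelled genes, Amh and Hsd17b3 lie highest, with the steroid genes Cyp11a1 and Cyp17a1 next. Fst and Stra8 lie lowest of the labelled genes, while Cldn11, a Sertoli cell gene, lies on the ovarian side.

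Most genes of the Sertoli cell were far above the ovary level in XY-KO although Sox9 was reduced. Of 26 Sertoli cell genes measured, 20 were higher in XY-KO than in XX-WT, 1 was lower and 5 were not called, with a median log2 fold change of 2.94. The same 26 genes set against the control testis show the loss: 15 were lower in XY-KO than in XY-WT, with a median of -1.08. At an unadjusted limma p under 0.05, 21 were lower and 0 higher. Summed over the list, the level was 79.1 CPM in XX-WT, 489 CPM in XY-KO and 913 CPM in XY-WT. They are given in 3 sets by their calls: higher than the ovary with no call against the control testis, called in both comparisons, and not called higher than the ovary. A missing call does not show that a gene was at the control testis level, so the interval or the unadjusted p of that difference is given with it.

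The first set included Hsd17b3 (ENSMUSG00000033122, chromosome 13, 64058266 to 64089230), whose enzyme makes testosterone from androstenedione and is found in fetal Sertoli cells in the mouse. It was below 0.125 CPM in XX-WT, at 48.8 CPM in XY-KO and at 44.7 CPM in XY-WT, a log2 difference of 8.97 from the ovary and 0.13 from the control testis (-0.29 to 0.55) in the authors' deposited table. Erbb4, a receptor for neuregulins, stood at 0.748 CPM in XX-WT, 16.8 CPM in XY-KO and 16.9 CPM in XY-WT, 22.5-fold (95% interval 11.9 to 42.4) higher than in the ovary. Its difference from the control testis had a log2 interval of -0.44 to 0.42. Cyp26b1, the retinoic acid degrading enzyme, also belonged here and is described with the germ cells.

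Inhbb, a subunit shared by activin B and inhibin B, was 4.07-fold (95% interval 3.17 to 5.23) higher than in the ovary, at 26.8 CPM in XY-KO and 29.8 CPM in XY-WT. Vnn1, a pantetheinase, was 4.62-fold (95% interval 3.01 to 7.09) higher and Fgf18, a fibroblast growth factor, 2.41-fold (95% interval 1.7 to 3.42) higher. Mro stood at 4.72 CPM in XX-WT, 27 CPM in XY-KO and 37.3 CPM in XY-WT. None of these 4 was called against the control testis, where their log2 intervals in XY-KO minus XY-WT were -0.45 to 0.15 for Inhbb, -0.20 to 0.75 for Vnn1, -0.14 to 0.75 for Fgf18 and -0.74 to -0.20 for Mro. That of Mro lies below 0 before adjustment. Sox8, a close relative of Sox9 that can act in its place, stood at 0.537, 7.59 and 12.4 CPM in the same order of groups, 14.1-fold (95% interval 7.29 to 27.4) higher than in the ovary and not called against the control testis (limma adjusted p 0.0888 in the authors' deposited table). Hsd17b1, an enzyme that activates sex steroids, stood at 1.32 CPM in XY-KO and 2.71 CPM in XY-WT and was below 0.125 CPM in XX-WT. For Sox8 and Hsd17b1 the authors' deposited table gave log2 differences from the control testis of -0.70 (-1.14 to -0.27) and -1.04 (-1.87 to -0.21), sizes that also occur among the genes called lower than the control testis.

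The second set, called above the ovary and below the control testis, held Amh, Dhh, Gdnf, Ptgds, Cst9, Mmd2, Aard, Col9a3, Tesc, Cbln4 and Nedd9. Amh (chromosome 10, 80805243 to 80807648), the hormone of Müllerian duct regression, was below 0.125 CPM in XX-WT, at 25.7 CPM in XY-KO and at 107 CPM in XY-WT. Against the ovary its log2 difference in the authors' deposited table was 8.98 (adjusted p 8.97e-06). Dhh, the hedgehog ligand by which Sertoli cells reach Leydig cells, stood at 0.231 CPM in XX-WT, 11.2 CPM in XY-KO and 28.5 CPM in XY-WT, 48.6-fold (95% interval 20.6 to 114) higher than in the ovary. Gdnf, a growth factor for germ cells, was below 0.125 CPM in XX-WT and stood at 8.69 CPM in XY-KO and 22 CPM in XY-WT. For each of the 3 secreted signals the Sox9-deleted testis was well above the ovary although Sox9 was reduced.

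Ptgds, the prostaglandin D synthase, stood at 0.239, 19.4 and 55.4 CPM in XX-WT, XY-KO and XY-WT, and was 81.5-fold (95% interval 19.4 to 342) higher in XY-KO than in the ovary. Aard stood at 5.67, 78.6 and 173 CPM and was 13.9-fold (95% interval 10.4 to 18.5) higher. Cst9, a cystatin, was 34.7-fold (95% interval 18.5 to 65.1) higher, and Mmd2 19.8-fold (95% interval 8.28 to 47.3) higher. Col9a3, a chain of type IX collagen, stood at 1.6, 12.8 and 57.8 CPM and was 8.0-fold (95% interval 5.4 to 11.9) higher. Tesc, which codes for the calcium-binding protein tescalcin, stood at 0.21, 1.54 and 8.94 CPM. Cbln4 was 6.27-fold (95% interval 3.37 to 11.7) higher than in the ovary and Nedd9, a scaffold protein of cell adhesion, 2.41-fold (95% interval 1.98 to 2.93) higher.

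The third set was not called higher than the ovary. Cldn11, the claudin of Sertoli cell tight junctions, was the single member called lower in XY-KO than in XX-WT, 2.44-fold (95% interval 1.55 to 3.83) lower: the ovary stood at 6.4 CPM, XY-KO at 2.63 CPM and XY-WT at 16.2 CPM. Shbg stood at 2.5 CPM in XX-WT, 2.8 CPM in XY-KO and 7.04 CPM in XY-WT, and its log2 difference from the ovary was 0.16 (95% interval -0.46 to 0.78) in the authors' deposited table. Cst8 stood at 13.8, 13.2 and 22.4 CPM, with a log2 difference from the ovary of -0.06 (95% interval -0.45 to 0.33) there. Both genes were called lower in XY-KO than in XY-WT, as was Cldn11 (log2 difference -2.62, limma adjusted p 0.000116 in the authors' deposited table). Sox10, another relative of Sox9, stood at 0.419 CPM in XY-KO against 6.39 CPM in XY-WT and was called lower than in the control testis (log2 difference -3.93, limma adjusted p 0.000278 in the authors' deposited table). It was not called against the ovary (log2 difference 1.83, 95% interval 0.09 to 3.57, limma adjusted p 0.145 in the authors' deposited table), where it was below 0.125 CPM.

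Fgf9, the growth factor that sustains the testis path, was not called in either comparison of XY-KO: the authors' deposited table gave log2 differences of 0.88 from the ovary (95% interval 0.15 to 1.6, adjusted p 0.0917 by limma) and -0.84 from the control testis (-1.45 to -0.24). Dmrt1, a transcription factor of both Sertoli and germ cells, stood at 7.72, 6.3 and 10.3 CPM in XX-WT, XY-KO and XY-WT and was likewise not called in either. Its log2 difference from the control testis was -0.705 (unadjusted limma p 0.0193) in the authors' deposited table. Dmrt1 was also not called between the ovary and the control testis (log2 difference -0.41 in XX-WT minus XY-WT, limma adjusted p 0.279).

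Genes that SOX9 drives in cartilage were divided. Of 11 listed, 8 were measured, of which 4 were higher in XY-KO than in XX-WT and 4 were not called, with a median of 0.40. Sox6, Hapln1, which links matrix to hyaluronan, and Col11a1 were higher, 2.21-fold (95% interval 1.63 to 2.99), 1.73-fold (95% interval 1.4 to 2.14) and 1.87-fold (95% interval 1.41 to 2.48) respectively, and were not called against the control testis. Col2a1, type II collagen, picked out after its values were seen as the fourth higher gene, stood at 1.72 CPM in XX-WT, 3.32 CPM in XY-KO and 8.47 CPM in XY-WT, called above the ovary and below the control testis. Col9a1 and Col9a2, picked out after their values were seen because they are chains of the same type IX collagen as Col9a3, were not called against the ovary, with log2 differences of -0.18 (95% interval -0.92 to 0.55) and 0.01 (95% interval -0.61 to 0.64) in the authors' deposited table, and were called lower than in the control testis. Col9a2 stood at 2.43 CPM in XX-WT, 2.45 CPM in XY-KO and 8.99 CPM in XY-WT, and Col9a1 at 1.71, 1.5 and 6.57 CPM.

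Genes of the steroid-making Leydig cell were far above the ovary level in XY-KO, and their values lay close to those of the control testis. Of 13 fetal Leydig and steroid synthesis genes measured (Insl3 was not analysed here), 10 were higher in XY-KO than in XX-WT, 1 was lower and 2 were not called, with a median of 3.41. Summed over the list, the level was 112 CPM in XX-WT, 905 CPM in XY-KO and 939 CPM in XY-WT. By limma no member was called against the control testis (1 at an unadjusted p under 0.05), and the list's median difference from it was -0.10.

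Star, which carries cholesterol into mitochondria, stood at 3.71 CPM in XX-WT, 62.2 CPM in XY-KO and 80.9 CPM in XY-WT, 16.8-fold (95% interval 10.9 to 25.7) higher than in the ovary. Cyp11a1, which cuts the cholesterol side chain, stood at 0.811, 125 and 123 CPM and was 154-fold (95% interval 65.8 to 359.9) higher. Cyp17a1 (ENSMUSG00000003555, chromosome 19, 46667165 to 46673172), which commits the pathway to androgens, stood at 1.19, 155 and 160.2 CPM and was 130.1-fold (95% interval 70.2 to 241) higher. Against the control testis the log2 intervals were -0.78 to 0.03 for Star, -0.44 to 0.48 for Cyp11a1 and -0.44 to 0.34 for Cyp17a1. Each of these intervals holds 0, and the widest, that of Cyp11a1, allows a loss or gain of moderate size. The interval of Star lies mostly below 0 and allows the largest loss, down to -0.78.

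Hsd3b1 was 16.7-fold (95% interval 11.9 to 23.5) higher than in the ovary, at 260.2 CPM in XY-KO. Its relative Hsd3b6 was the 1 member called lower, at 7.49 CPM in XX-WT and 3.73 CPM in XY-KO. These near-identical genes may share reads, so their separate values are uncertain. Ren1, the renin gene, was 78.2-fold (95% interval 22.7 to 269) higher, and the receptor genes Lhcgr, for luteinising hormone, and Prlr, for prolactin, were 10.6-fold (95% interval 6.83 to 16.4) and 11.2-fold (95% interval 8.62 to 14.6) higher. Fdx1 and Fdxr, which pass electrons to the mitochondrial enzymes, were 5.02-fold (95% interval 3.57 to 7.06) and 2.47-fold (95% interval 1.94 to 3.16) higher. Scarb1, which takes up lipoprotein cholesterol, was 3.3-fold (95% interval 2.42 to 4.49) higher, whereas Por and Cyb5a, general electron donors, were not called, with log2 differences of 0.14 and -0.36 in the authors' deposited table.

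The adrenal-type genes of fetal Leydig cells were higher too, in 3 of the 3 measured (Cyp21a1 was not analysed here): Mc2r, the corticotropin receptor, 3.77-fold (95% interval 1.94 to 7.34), its partner Mrap 4.09-fold (95% interval 1.54 to 10.8) and Cyp11b1 14.1-fold (95% interval 4.88 to 40.5). Of 21 cholesterol synthesis and uptake genes, 14 were higher and 7 were not called, with a median of 0.66. Lss, Msmo1 and Cyp51, enzymes between squalene and cholesterol, led by adjusted p, at 2.61-fold (95% interval 2.03 to 3.36), 2.5-fold (95% interval 2.0 to 3.12) and 2.23-fold (95% interval 1.73 to 2.86) higher.

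**Figure D2:**
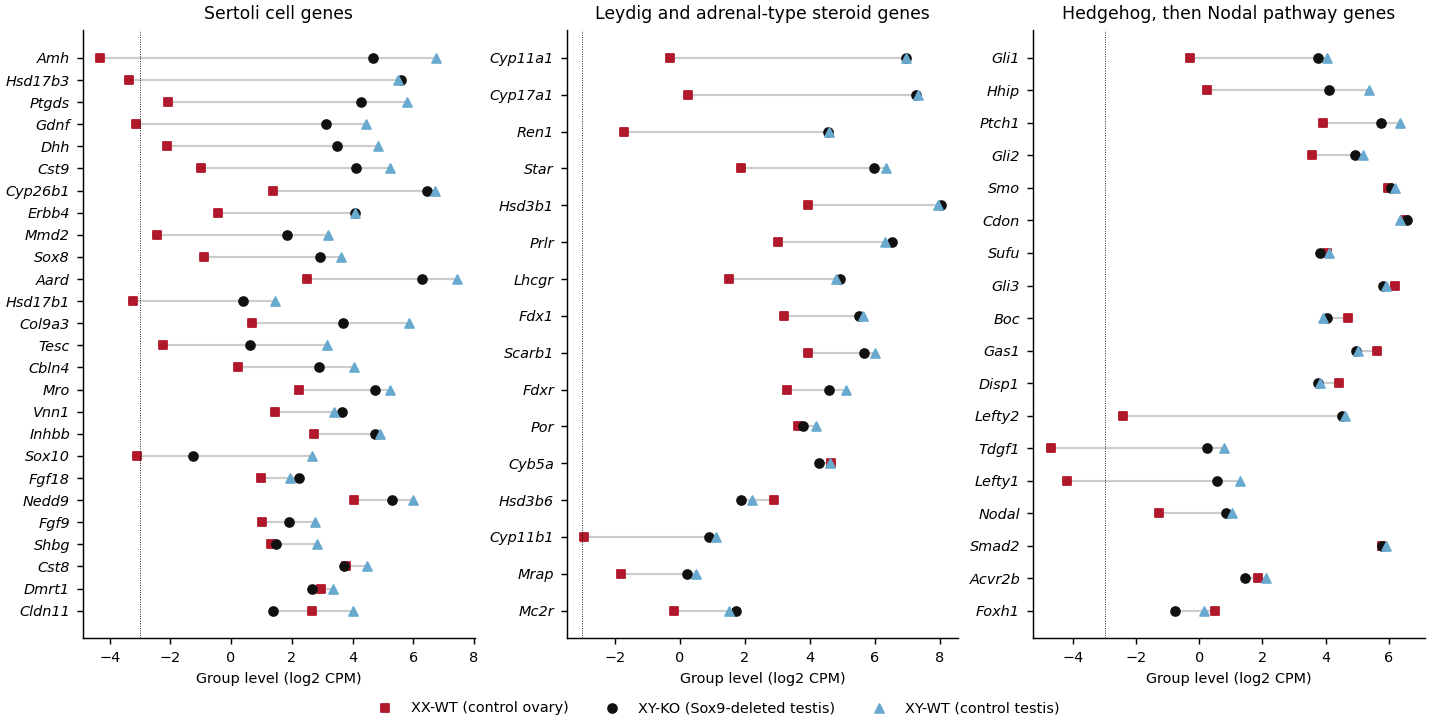
Each row is a named gene of the Sertoli list, of the Leydig and adrenal-type lists, or of the hedgehog and Nodal lists, and its symbols give the group level in log2 CPM: red squares XX-WT, black circles XY-KO and blue triangles XY-WT. The dotted line marks -3 log2 CPM, below which no fold is given. The circle sits on the triangle for steroid genes such as Cyp11a1 and Cyp17a1, between square and triangle for Amh and Dhh, and at or left of the square for Cst8 and Cldn11.

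Hedgehog signalling, by which Sertoli cells induce Leydig cells, was read from its 12 measured pathway genes. Of these, 4 were higher in XY-KO than in XX-WT, 3 were lower and 5 were not called, with a median of 0.04. The higher members were the transcriptional readouts Gli1, Hhip and Ptch1 and the mediator Gli2. Gli1 stood at 0.809 CPM in XX-WT, 13.48 CPM in XY-KO and 16.5 CPM in XY-WT, 16.7-fold (95% interval 8.3 to 33.4) higher than in the ovary. Hhip, which binds and removes the ligands, was 14.6-fold (95% interval 9.85 to 21.7) higher, and Ptch1, the ligands' receptor, 3.52-fold (95% interval 2.87 to 4.32) higher. Hhip at 17.3 CPM and Ptch1 at 53.5 CPM were also called lower than in the control testis (41.4 and 81.8 CPM), as Dhh was. Gli2 was 2.58-fold (95% interval 1.96 to 3.39) higher than in the ovary.

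Of the lower hedgehog members, the co-receptors Gas1 and Boc and the ligand-release protein Disp1 were 1.58-fold (95% interval 1.25 to 1.99), 1.56-fold (95% interval 1.17 to 2.07) and 1.59-fold (95% interval 1.25 to 2.02) lower than in the ovary. The signal transducer Smo, the co-receptor Cdon and the repressors Gli3 and Sufu were not called, with log2 differences between -0.36 and 0.10 in the authors' deposited table.

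Genes of the interstitium and of the vessel wall were next. Of 9 interstitial progenitor genes, 5 were higher in XY-KO, 1 was lower and 3 were not called, with a median of 0.70. The 5 include Maf, picked out after its values were seen as the single member called against the control testis. Its log2 difference in XY-KO was 0.698 from the ovary and 0.50 from the control testis (limma adjusted p 0.0344) in the authors' deposited table. Maf was not called between the ovary and the control testis (-0.198 in XX-WT minus XY-WT, limma adjusted p 0.243). Pdgfra, a growth factor receptor of interstitial cells, stood at 97.8 CPM in XX-WT, 252 CPM in XY-KO and 239.8 CPM in XY-WT, 2.58-fold (95% interval 2.09 to 3.18) higher than in the ovary. Jag1, a Notch ligand, was 6.83-fold (95% interval 4.95 to 9.41) higher and Vcam1, an adhesion molecule, 5.46-fold (95% interval 3.88 to 7.69) higher, while Igf1, a growth factor, was 1.55-fold (95% interval 1.28 to 1.88) lower. Of 9 smooth muscle and perivascular genes (Cnn1 and Actg2 were not analysed here), 4 were higher, 1 was lower and 4 were not called. Acta2, smooth muscle actin, was 3.68-fold (95% interval 2.85 to 4.76) higher, Notch3 2.35-fold (95% interval 1.78 to 3.12) and Pdgfrb 2.03-fold (95% interval 1.57 to 2.63), whereas Myh11, smooth muscle myosin, was 1.6-fold (95% interval 1.22 to 2.1) lower.

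Basement membrane genes, whose products wrap the testis cords, were higher for 9 of 16 and not called for 7, with a median of 0.67. Col4a1 stood at 90.2 CPM in XX-WT, 283 CPM in XY-KO and 340.2 CPM in XY-WT, 3.14-fold (95% interval 2.45 to 4.02) higher than in the ovary. The type IV collagen partner Col4a2 was 2.47-fold (95% interval 2.0 to 3.06) higher and Nid1, which ties laminin to collagen, 2.35-fold (95% interval 1.99 to 2.78) higher. Lama5, a laminin chain, had a log2 difference of -0.27 (95% interval -0.78 to 0.24) in the authors' deposited table and was not called. Col18a1, picked out after its values were seen as the single member called against the control testis, stood at 30.8, 49.5 and 105 CPM in XX-WT, XY-KO and XY-WT. At an unadjusted limma p under 0.05, 3 members were lower than in the control testis and 0 were higher. Among these 3 was Hspg2, also picked out after its values were seen. Its log2 differences were 0.004 from the ovary and -0.698 from the control testis (unadjusted limma p 0.00318) in the authors' deposited table.

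Activin and fibroblast growth factor genes were called in both directions, beside 8.97% higher and 8.80% lower over all autosomal genes. Their lower counts, 2 of 14 and 1 of 12, are close to that share and say nothing particular about the lists. Of 16 activin, inhibin and BMP genes listed, 14 were measured, of which 3 were higher in XY-KO, 2 were lower and 9 were not called, with a median of -0.07. Inhba, the activin A subunit, stood at 3.16 CPM in XX-WT, 52.5 CPM in XY-KO and 50.1 CPM in XY-WT, 16.6-fold (95% interval 9.63 to 28.7) higher. Inhbb was the second, and Inha, the inhibin alpha subunit, picked out after its values were seen, was 6.82-fold (95% interval 4.4 to 10.6) higher. The lower pair was Fst, which binds and blocks activin, and Bmp2. Among 12 FGF pathway genes, 4 were higher, 1 was lower and 7 were not called. The inhibitor Spry4 was 2.11-fold (95% interval 1.54 to 2.88) higher, and the receptor gene Fgfr2 2.4-fold (95% interval 1.99 to 2.89) lower.

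Pre-granulosa genes were far below the ovary level in the Sox9-deleted testis. Of 11 measured, 10 were lower in XY-KO than in XX-WT and 1 was higher, with a median of -3.11. By limma none of the 11 was called between XY-KO and XY-WT, where 0.638% of all autosomal genes were called higher and 1.56% lower. At an unadjusted p under 0.05, 1 of them, Runx1, was higher in XY-KO than in XY-WT, by 0.77 on the log2 scale (0.28 to 1.27) in the authors' deposited table. Fst (ENSMUSG00000021765, chromosome 13, 114452290 to 114458951) stood at 129.8 CPM in XX-WT, 1.27 CPM in XY-KO and 0.84 CPM in XY-WT, 102-fold (95% interval 70.3 to 149) lower than in the ovary. Its log2 difference from the control testis was 0.59 (-0.22 to 1.41) in the authors' deposited table. Foxl2, the transcription factor that maintains the granulosa fate, stood at 2.08 CPM in XX-WT and was below 0.125 CPM in both testis groups.

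Irx3 and Irx5, homeobox genes of the ovarian supporting cells, stood at 17 and 2.77 CPM in XX-WT and at 0.38 and 0.211 CPM in XY-KO. Runx1, a transcription factor that acts with FOXL2, was 8.66-fold (95% interval 6.62 to 11.3) lower, at 9.59 CPM in XY-KO and 5.61 CPM in XY-WT. Bmp2, a ligand of ovarian supporting cells, was 7.44-fold (95% interval 5.64 to 9.82) lower and Msx1, a target of such ligands, 23.4-fold (95% interval 11.2 to 49.1) lower. Kitl, the ligand of the germ cell receptor KIT, was 3.28-fold (95% interval 2.69 to 4.01) lower, Cdkn1b, which holds cells out of the cycle, 3.86-fold (95% interval 3.13 to 4.74) and Gng13 2.85-fold (95% interval 1.47 to 5.51). Esr2, the estrogen receptor beta gene, was the exception, at 0.575 CPM in XX-WT, 2.74 CPM in XY-KO and 2.11 CPM in XY-WT.

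Of 12 canonical WNT genes, 9 were lower in XY-KO than in XX-WT and 3 were not called, with a median of -1.39. Wnt4, the ovarian ligand, stood at 59.9 CPM in XX-WT, 13.9 CPM in XY-KO and 12.8 CPM in XY-WT, 4.31-fold (95% interval 3.29 to 5.64) lower than in the ovary. Lef1, a transcription factor of the pathway, was 2.72-fold (95% interval 2.24 to 3.31) lower. Ctnnb1, which codes for beta-catenin, had a log2 difference of 0.03 (95% interval -0.31 to 0.37) in the authors' deposited table. Lgr5, the R-spondin receptor gene, lay below both controls: it stood at 55 CPM in XX-WT, 16.2 CPM in XY-WT and 2.89 CPM in XY-KO, 19-fold (95% interval 12.5 to 29) lower than in the ovary, and it was called lower than in the control testis by a log2 difference of -2.49 in the authors' deposited table. In the opposite direction, Rnf43, a WNT feedback inhibitor picked out after its values were seen, stood at 9.09, 4.48 and 1.64 CPM in XX-WT, XY-KO and XY-WT, called below the ovary and above the control testis.

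**Figure D3:**
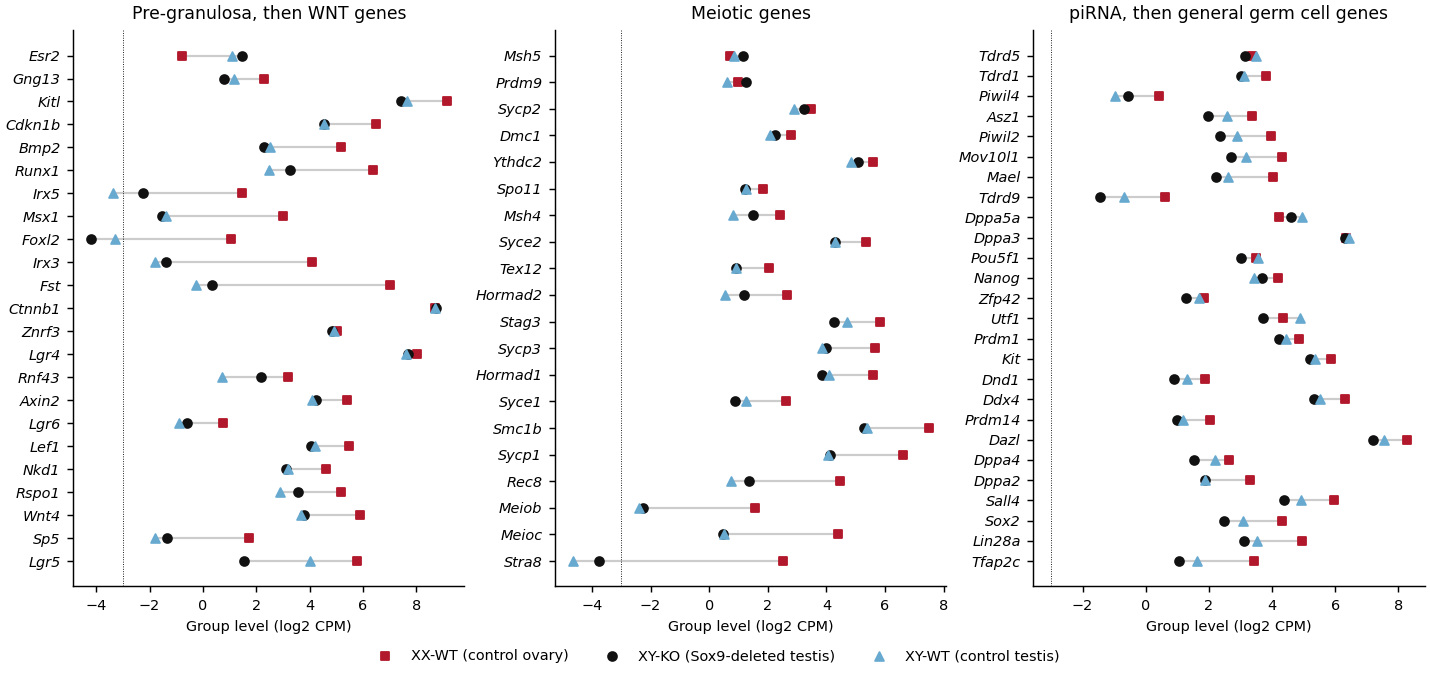
Each row is a gene of the pre-granulosa and WNT lists, of the meiotic list, or of the piRNA and general germ cell lists, with the group level in log2 CPM as a red square (XX-WT), black circle (XY-KO) or blue triangle (XY-WT). The dotted line marks -3 log2 CPM. For Fst, Foxl2 and Stra8 the circle lies beside the triangle and far left of the square, while for Lgr5 it lies left of both.

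Retinoic acid handling is the link between supporting cells and germ cells. Cyp26b1 (ENSMUSG00000063415, chromosome 6, 84571414 to 84593908) stood at 2.62 CPM in XX-WT, 88.1 CPM in XY-KO and 106 CPM in XY-WT, 33.6-fold (95% interval 24.5 to 46) higher than in the ovary. In XY-KO minus XY-WT the authors' deposited table gave -0.27 (-0.54 to -0.001, limma adjusted p 0.262). Of 16 retinoic acid genes listed, 13 were measured, of which 2 were higher in XY-KO than in XX-WT, 3 were lower and 8 were not called. The other higher member was Aldh1a1, which makes retinoic acid, at 60.3 CPM in XX-WT, 443 CPM in XY-KO and 406 CPM in XY-WT. Crabp1, a retinoic acid binding protein, was 3.67-fold (95% interval 2.23 to 6.02) lower. A degrading and a synthesising enzyme thus both stood above the ovary level in XY-KO.

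Stra8, the retinoic acid responsive gene that germ cells switch on as they enter meiosis, was picked out for that role after its values were seen. It stood at 5.77 CPM in XX-WT and below 0.125 CPM in XY-KO and XY-WT, a log2 difference of -6.29 from the ovary in the authors' deposited table. The promoters of Stra8 and Cyp26b1 are printed because the first gene responds to retinoic acid and the second degrades it, and they differed from the ovary in opposite directions. The sequences are from RefSeq (GRCm38.p6, chr6:34920698-34920997 on the + strand and chr6:84593761-84594060 on the - strand), 250 bases before to 50 after the RefSeq start, with AGGTCA, the half-site of retinoic acid receptors, in capitals where it occurs. Both strands were searched for these letters and no other motif was searched.
Stra8: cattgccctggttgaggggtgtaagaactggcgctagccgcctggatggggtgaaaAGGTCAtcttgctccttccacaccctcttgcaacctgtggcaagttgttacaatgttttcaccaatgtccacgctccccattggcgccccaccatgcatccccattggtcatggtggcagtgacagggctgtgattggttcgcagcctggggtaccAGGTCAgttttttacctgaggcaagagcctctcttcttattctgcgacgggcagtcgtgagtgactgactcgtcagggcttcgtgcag
Cyp26b1: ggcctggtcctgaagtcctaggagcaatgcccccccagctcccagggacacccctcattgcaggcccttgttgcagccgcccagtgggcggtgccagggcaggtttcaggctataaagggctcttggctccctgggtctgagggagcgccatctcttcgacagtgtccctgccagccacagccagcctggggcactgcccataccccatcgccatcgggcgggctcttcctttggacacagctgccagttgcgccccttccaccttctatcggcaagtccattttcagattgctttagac
The letters occur 2 times in the Stra8 window, as they do at least 2 times in 1.8% of the 32851 promoters of this length. They occur at least 1 time in 16.3% of them and not in the Cyp26b1 window. A match is a run of letters and not a measured binding site.

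Meiotic genes, which ovarian germ cells express at this stage, were lower in the Sox9-deleted testis. Of the 24 meiotic genes listed, 20 were measured, of which 13 were lower in XY-KO than in XX-WT and 7 were not called, with a median of -1.52. Summed over the list, the level was 622 CPM in XX-WT, 193 CPM in XY-KO and 193 CPM in XY-WT. Rec8, a meiotic cohesin, stood at 22.3 CPM in XX-WT, 2.58 CPM in XY-KO and 1.69 CPM in XY-WT, 8.65-fold (95% interval 5.47 to 13.7) lower than in the ovary. Smc1b, another cohesin, was 4.59-fold (95% interval 3.14 to 6.71) lower and Hormad1, a protein of the chromosome axis, 3.35-fold (95% interval 2.56 to 4.39) lower. Msh5, a recombination protein, had a log2 difference of 0.45 (95% interval -0.31 to 1.2) in the authors' deposited table and was not called.

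General germ cell genes were lower too, for 12 of the 18 measured of 19 listed, with 6 not called and a median of -1.0. Their summed level was 777 CPM in XX-WT, 429 CPM in XY-KO and 534 CPM in XY-WT, so the meiotic difference stood beside a smaller difference in the general germ cell genes, whose part in the meiotic result was not tested. Tfap2c, a transcription factor of early germ cells, was 5.26-fold (95% interval 3.39 to 8.17) lower, Lin28a, an RNA-binding protein, 3.58-fold (95% interval 2.55 to 5.01) and Sox2, a pluripotency factor, 3.55-fold (95% interval 2.53 to 4.98). Dppa5a had a log2 difference of 0.37 (95% interval -0.06 to 0.80) in the authors' deposited table. Of 11 prospermatogonial and piRNA genes listed, 8 were measured (not Nanos2 or Dnmt3l, for example), of which 5 were lower and 3 were not called. Piwil2, Mael and Mov10l1, which act in transposon silencing, were 3.03-fold (95% interval 2.18 to 4.21), 3.48-fold (95% interval 2.26 to 5.36) and 3.05-fold (95% interval 1.93 to 4.81) lower.

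Genes of the Nodal pathway, which male germ cells switch on for a short time around this stage, were higher. Of 8 measured, 5 were higher in XY-KO than in XX-WT and 3 were not called, with a median of 2.74. Lefty2, a feedback inhibitor of Nodal, stood at 0.188 CPM in XX-WT, 23 CPM in XY-KO and 24.5 CPM in XY-WT, 122-fold (95% interval 32.4 to 460.1) higher than in the ovary. The ligand gene Nodal stood at 0.414, 1.81 and 2.04 CPM in XX-WT, XY-KO and XY-WT. Tdgf1, the co-receptor, and Lefty1, a second inhibitor, were below 0.125 CPM in XX-WT and stood at 1.19 and 1.46 CPM in XY-KO.

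The receptor gene Acvr2b and the mediators Foxh1 and Smad2 were not called, with log2 differences from the ovary of -0.41, -1.26 and -0.01 in the authors' deposited table. Against the control testis no Nodal gene was called by limma (1, Acvr2b, lower at an unadjusted p under 0.05). That comparison called 0.638% of all autosomal genes higher and 1.56% lower, so a list this short would often have no call. The intervals of Lefty2 (-0.63 to 0.44) and Nodal (-1.09 to 0.75) leave room for a change of more than 2-fold for Nodal.

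**Figure D4:**
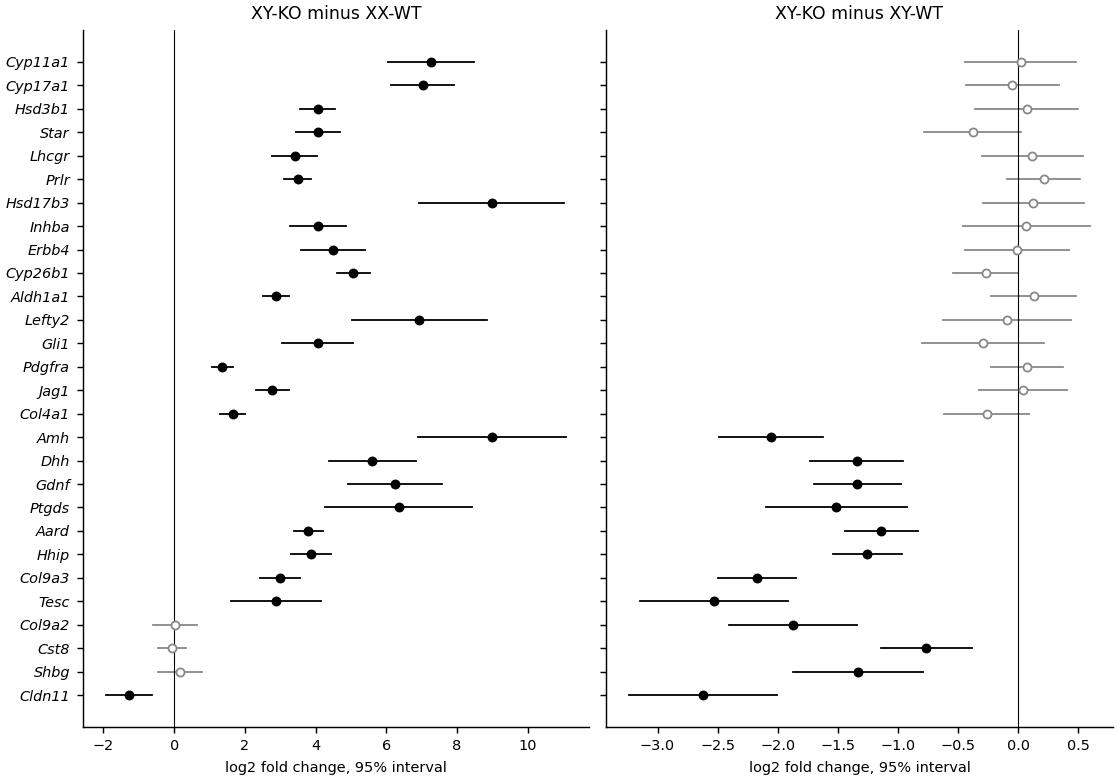
Points are log2 fold changes and lines their 95% intervals for 28 genes, in XY-KO minus XX-WT on the left and XY-KO minus XY-WT on the right. The x scales of the panels differ. Filled black points are called at a limma adjusted p under 0.05 and open grey points are not. Cyp11a1 and Cyp17a1 are far right of 0 on the left and at 0 on the right, Amh and Dhh are called in both panels in opposite directions, and Cldn11 lies left of 0 in both.

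Of 12 transcription factors that act in both early gonads, 3 were higher, 4 were lower and 5 were not called, with a median of -0.43. Emx2, needed for the gonad to form, was 2.33-fold (95% interval 1.87 to 2.9) lower than in the ovary and Wt1, needed in supporting cells, 1.57-fold (95% interval 1.26 to 1.97) lower, while Tcf21, a factor of interstitial cells, was 3.09-fold (95% interval 2.31 to 4.13) higher. Of the 17 cell cycle genes, 2 were lower and 15 were not called; the replication genes Mcm6 and Mcm3 were 1.47-fold (95% interval 1.19 to 1.82) and 1.36-fold (95% interval 1.12 to 1.64) lower.

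Among the genes with the largest differences outside the lists, Prokr2, a prokineticin receptor, stood at 0.958 CPM in XX-WT, 62.7 CPM in XY-KO and 77.2 CPM in XY-WT, 65.4-fold (95% interval 41.2 to 104) higher than in the ovary. Adh1, an alcohol dehydrogenase that also oxidises retinol, was 41.8-fold (95% interval 22.3 to 78.1) higher. On the ovarian side, Tnfrsf19, a receptor of the tumour necrosis factor family, stood at 87.5, 5.72 and 6.61 CPM, 15.3-fold (95% interval 12 to 19.5) lower in XY-KO than in the ovary. The matrix genes Col12a1, a collagen, and Adamts19, a secreted protease, were 9.16-fold (95% interval 6.6 to 12.7) and 8.72-fold (95% interval 6.4 to 11.9) lower. The transcription factor Bhlhe41 was 8.03-fold (95% interval 5.67 to 11.4) lower and the nuclear receptor Nr6a1 7.59-fold (95% interval 5.63 to 10.2). Anpep, an aminopeptidase, was 6.78-fold (95% interval 4.73 to 9.73) lower. Lrrn1, a leucine-rich repeat protein, stood at 181 CPM in XX-WT, 29 CPM in XY-KO and 15.1 CPM in XY-WT. It was 6.23-fold (95% interval 4.89 to 7.94) lower than in the ovary and was also called higher than in the control testis.

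Markers of other cells gave these values, over 11 of 12 listed erythroid, 8 of 11 macrophage, 5 of 8 mesonephric, 6 of 12 skeletal muscle and 7 of 11 immediate early and heat shock genes. Endothelial markers were higher for 1 of 15, Tek, at 1.83-fold (95% interval 1.45 to 2.33), lower for 1, Pecam1, at 1.4-fold (95% interval 1.15 to 1.69), and not called for 13, with a median of 0.05. Macrophage markers were lower for 1 of 8 (Adgre1) and not called for 7. For the endothelial, macrophage and cell cycle lists these shares lie near those over all autosomal genes and say nothing particular about the lists. Erythroid markers were lower for 5 of 11, with a median of -0.58 and summed levels of 832 CPM in XX-WT and 443 CPM in XY-KO; they included Hba-a1 and Hba-a2, near-identical genes whose reads may be shared. Mesonephric markers were lower for 3 of 5, led by Ret at 5.86 CPM in XX-WT and 0.208 CPM in XY-KO, and higher for 1, Lhx1. Skeletal muscle markers were not called for 6 of 6 by limma (0 at an unadjusted p under 0.05), with summed levels of 42.6 CPM in XY-KO and 46.5 CPM in XX-WT against 14.8 CPM in XY-WT. Immediate early and heat shock genes were higher for 4 of 7, with Hspa1a and Hspa1b, which may share reads, at log2 differences of 2.42 and 2.89 in the authors' deposited table. The part of any of these markers in the results above was not tested.

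**Figure D5:**
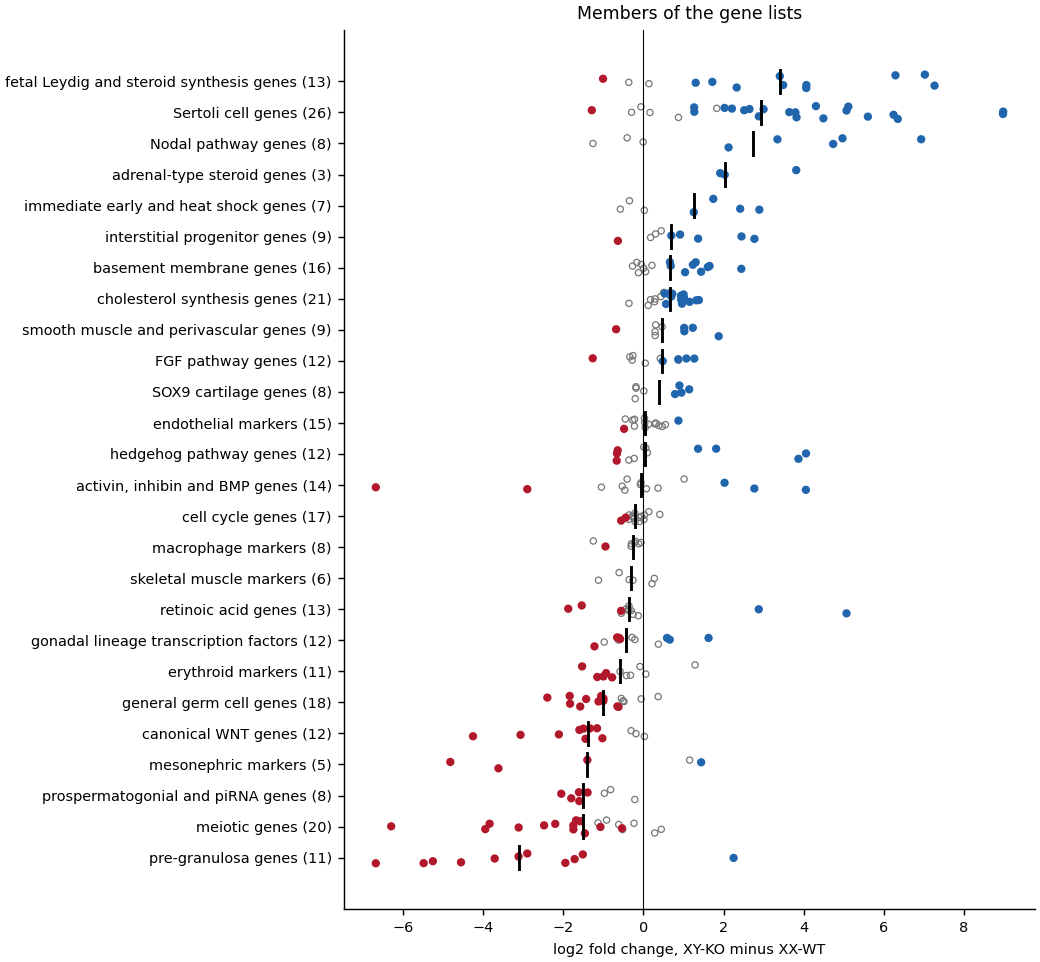
Each row is 1 of the 26 gene lists, with the number of measured members in brackets, and each point is a member's log2 fold change in XY-KO minus XX-WT. Blue and red points are called higher and lower, open points are not called, and the black bar is the list's median. The Leydig and Sertoli lists have the highest medians (3.41 and 2.94) and the pre-granulosa list the lowest (-3.11).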

How the data were processed

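RNA from gonads dissected away from the mesonephros was column-purified, amplified by the SPIA method and sequenced as read pairs of 150 nt, per the labels' protocols. Reads were processed with Trimmomatic 0.30, TopHat2 2.0.8, HTSeq 0.6.1p1 and limma 3.24.0 on GRCm38, per the submitters' processing notes. The gene filter, sample weights, log offset and use of strand are not given in the sources used here.

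The authors deposited 3 tables of group comparisons over the same 15300 genes. Per the file headers, each holds the log2 fold change and mean log2 expression, the limma scores (moderated t and log-odds), the p-value and the Benjamini-Hochberg adjusted p-value. Recomputing the deposited adjusted p-value gave a relative difference of at most 0.000769, the fold changes added up within 0.005, and t matched the deposited p at 15.27 degrees of freedom throughout. Standard errors were the log2 fold change over t. Levels assumed equal weight of the groups. No sample's values were used, so depth and its precision per sample are unknown. Positions came from GENCODE M21 for 15192 genes (99.3%), and X-linked, Y-linked, mitochondrial and unplaced genes were left out of the description but not of the adjustment.

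Genes were called at an adjusted p under 0.05 with no fold limit. The 26 lists are described by counts and medians, without a test. Named genes were Cyp17a1, Cyp26b1, Fst and Sox9, all members of the Sertoli, Leydig, pre-granulosa, hedgehog and Nodal lists, in every other list the 3 smallest adjusted p and the smallest of the other direction, and the 10 largest differences each way among called genes with a standard gene name (not Gm, Rik, clone or ENSMUSG names) at or above the median expression of 3.19. Of the members this names, 2 are counted in their lists but not reported here by name. Any other gene named was chosen after its values were seen. The members and lists were chosen with earlier results of these data known. Alternatives were a stricter adjusted p, a 2-fold limit, an expression filter, Bonferroni adjustment, adjustment over autosomal genes or over the 3 comparisons, centring on the autosomal median, and removal of a trend with GC content and length (polynomials of degree 3). Scripts were tested on simulated data and ran in Python 3.11.15 with numpy 2.4.6, pandas 2.3.3, scipy 1.17.1, statsmodels 0.14.6 and matplotlib 3.10.9.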

Additional observations from a re-analysis of the deposited data

How the results depend on the processing

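The numbers of autosomal genes higher and lower in XY-KO than in XX-WT were 836 and 733 at an adjusted p under 0.01, 752 and 672 with a 2-fold limit, 693 and 585 among genes at or above median expression, and 254 and 185 with Bonferroni adjustment, each of these keeping fewer genes by construction. At or above median expression, 6 Sertoli genes were higher, 4 pre-granulosa genes were lower and 0 Nodal genes were higher, because the filter removes the other members. With Bonferroni adjustment 1 Nodal gene was higher. Of the 151 genes named by rule, the expression filter left 89, and all 89 gave the same call. Only removal of the trend and centring alter a fold change, so under every other alternative the direction could not change. With the GC and length trend removed, 145 were unchanged in direction and call, 3 became called, 2 were no longer called, and Cst8, which was not called, turned to 0.084 (adjusted p 0.813). Bonferroni adjustment ended the call of 46, the 2-fold limit of 14 and an adjusted p under 0.01 of 13. The share of higher genes among those called lay between 50.6% and 57.9% over the alternatives. No paired analysis was possible because the deposited tables used here hold group results only, and leaving out each replicate in turn was not run for the same reason. The unknown log offset limits every value of a group below 0.125 CPM, and unknown depth limits what can be said of genes near that level.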

Other observations

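Some genes outside the lists, picked out after their values were seen among the largest differences, are given here as single values and not as a group. Oxtr, the oxytocin receptor gene, stood at 0.555 CPM in XX-WT, 15.5 CPM in XY-KO and 17.2 CPM in XY-WT, 27.9-fold (95% interval 16.1 to 48.5) higher than in the ovary. Pdyn, which codes for the opioid precursor prodynorphin, stood at 0.348, 8.7 and 9.11 CPM in the same order, and Cbln1, a secreted synapse organiser, at 0.574, 33.5 and 37.6 CPM. Nts, the neurotensin gene, was below 0.125 CPM in XX-WT and stood at 5.44 CPM in XY-KO and 4.61 CPM in XY-WT. Shh, a hedgehog ligand gene, was below 0.125 CPM in XX-WT and stood at 2.37 CPM in XY-KO and 3.27 CPM in XY-WT. The heart muscle genes Casq2 and Mybpc3 stood at 12 and 9.52 CPM in XY-KO against 0.332 and 0.213 CPM in XX-WT.

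On the ovarian side, the neighbouring imprinted genes Phlda2 and Slc22a18 (chromosome 7) stood at 7.68 and 1.19 CPM in XX-WT and below 0.125 CPM in XY-KO, with log2 differences of -6.78 and -4.08 in the authors' deposited table. Cdkn1c, in the same cluster, differed by -0.76 there. The receptor genes Oprk1, for opioids, and Chrm4, for acetylcholine, stood at 3.87 and 5.28 CPM in XX-WT. In XY-KO, Oprk1 was below 0.125 CPM and Chrm4 stood at 0.155 CPM.

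Beside Sox9, 2 long noncoding RNA genes were higher in XY-KO than in either control. Gm11681, which lies 5.0 kb after the end of Sox9 on the opposite strand, was below 0.125 CPM in XX-WT and XY-WT and stood at 1.5 CPM in XY-KO, with limma adjusted p of 0.000185 against the ovary and 0.00828 against the control testis in the authors' deposited table. 4933434M16Rik, 37.4 kb after Sox9 on the same strand, was also below 0.125 CPM in both controls and stood at 0.98 CPM in XY-KO, with adjusted p of 7.19e-05 and 0.00101. They were 2 of 10 genes of the table that start within 1.3 Mb after Sox9, and the only 2 of those called against the control testis. Over all autosomal genes that comparison called 0.638% higher and 1.56% lower. Because both were picked out after their values were seen, and genes before Sox9 were not counted, this count is a description and not a test. Whether counting used the strand is not given in the sources used here.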
